A study of Mus musculus with 12 samples.

Results

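The 37 mouse genes described here encode glucose and lactate transporters, enzymes of glycolysis and of the pentose phosphate pathway, and the transcription factor subunit HIF-1 alpha with its hydroxylases and a group of its target genes. They were taken by symbol from a pathway list drawn up with earlier results of these data known, and all 37 were found among the 37542 gene rows analysed. Of these 37 genes, 36 passed the filter on low counts and were tested among 12261 genes; Adm was counted too rarely to test. RNA was measured by sequencing in bone-marrow-derived macrophages, primary cells of C57BL/6N mice. The cells were wild type (WT) or came from Alpk1 knockout mice (Alpk1-/-, KO), and each genotype received either PBS or 100 µM ADP-heptose (ADP-Hep) for 4 h. This gave the 4 groups WT PBS, WT ADP-Hep, KO PBS and KO ADP-Hep, with 3 libraries each. The comparisons ask what ADP-Hep did to these genes in each genotype and whether that response differed without Alpk1.

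ADP-Hep is a nucleotide-linked heptose from the lipopolysaccharide synthesis of Gram-negative bacteria, and ALPK1 is the kinase that senses it in the cytosol and signals through TIFA and TRAF6 to NF-kB. Glycolysis splits glucose to pyruvate, which can be reduced to lactate and exported, while the pentose phosphate pathway draws on glucose 6-phosphate to make NADPH and ribose 5-phosphate. HIF-1 alpha is hydroxylated and degraded when oxygen is plentiful, and when stable it pairs with ARNT and activates many glycolytic genes; activated macrophages are known for a high glycolytic rate.

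The libraries held 16110654 to 31333973 counts, of which 71.3 to 85.2% lay in the gene rows analysed. Levels are CPM, counts scaled to a common library size, after TMM normalisation, which centres the bulk of genes, and are listed for replicates 1, 2 and 3. For KO ADP-Hep they are listed for replicate 1, replicate 3 and a library whose number matched no label. Alpk1 itself stood at 30.1, 32.1 and 25.9 CPM under PBS and 53.8, 55.3 and 52.3 CPM under ADP-Hep in WT cells, and at 22.3, 20.3 and 21.3 CPM and 21.6, 19.2 and 22.5 CPM in KO cells. All 6 KO libraries were thus below all 6 WT libraries, but Alpk1 was counted in each of them. The sources used here do not give the deleted part of the gene, the number of mice or whether WT and KO mice were littermates, so these counts check the genotype labels in part at most. All 10 macrophage markers were detected, with a summed level of 25237 to 27159 CPM in WT PBS, 29322 to 30275 in WT ADP-Hep, 26992 to 27831 in KO PBS and 26159 to 26873 in KO ADP-Hep. Neutrophil markers summed to 322 to 356 CPM in WT PBS, 299.6 to 319 in WT ADP-Hep, 342 to 368 in KO PBS and 269 to 279 in KO ADP-Hep, with 5 of 9 tested markers lower after ADP-Hep in KO cells. B-cell markers summed to 7.69 to 17.9 CPM with Pax5 at 0 counts, and the T-cell, NK-cell, erythroid, stromal, dendritic-cell and mast-cell lists summed to at most 2.28 CPM. The part of these other cell types in the results was not tested. In bulk RNA, fewer cells of a type and less RNA per cell cannot be told apart. Since no label ties the 3 libraries of a group to different mice or dishes, the p-values rest on library-to-library spread that may be purely technical.

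In WT cells, ADP-Hep raised 22 of the 36 tested genes and lowered 6, while 8 did not pass the test. Of all genes tested, 31.9% were called higher and 31.6% lower, so more of these genes were called higher than in the background and fewer lower. The median change was 0.21 on the log2 scale, against -0.01 over all genes. Of the 36 tested genes, 7 were called with a change of at least 2-fold. The share of all genes at 2-fold is not given here, so this count has no background. The listed genes that rose most were the glucose transporter genes Slc2a6 and Slc2a1, the lactate exporter gene Slc16a3, Hif1a and the prolyl hydroxylase gene Egln3. Those that fell most were Ndrg1 and Pfkm. In KO cells 2 genes were called higher and 8 lower, against a background of 13.7% and 15.3%, with a median of -0.10. No called gene reached 2-fold there, again without a share of all genes beside it. A gene was called at an adjusted p under 0.05 in edgeR's quasi-likelihood test with Benjamini-Hochberg adjustment over all genes, and changes are log2 fold changes ± SE. With library totals as the only scaling, the median of all genes in WT cells moved to -0.12 and the calls over all genes split into 2990 higher and 4927 lower, against 3914 and 3871 with TMM. Under that scaling the WT increases of Pgk1, Eno1, Pkm, Egln1, G6pdx, Tkt and Taldo1 were no longer called. Hk1 (-0.20) and Slc16a1 (-0.26), not called with TMM, were called lower in WT cells.

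**Figure D1:**
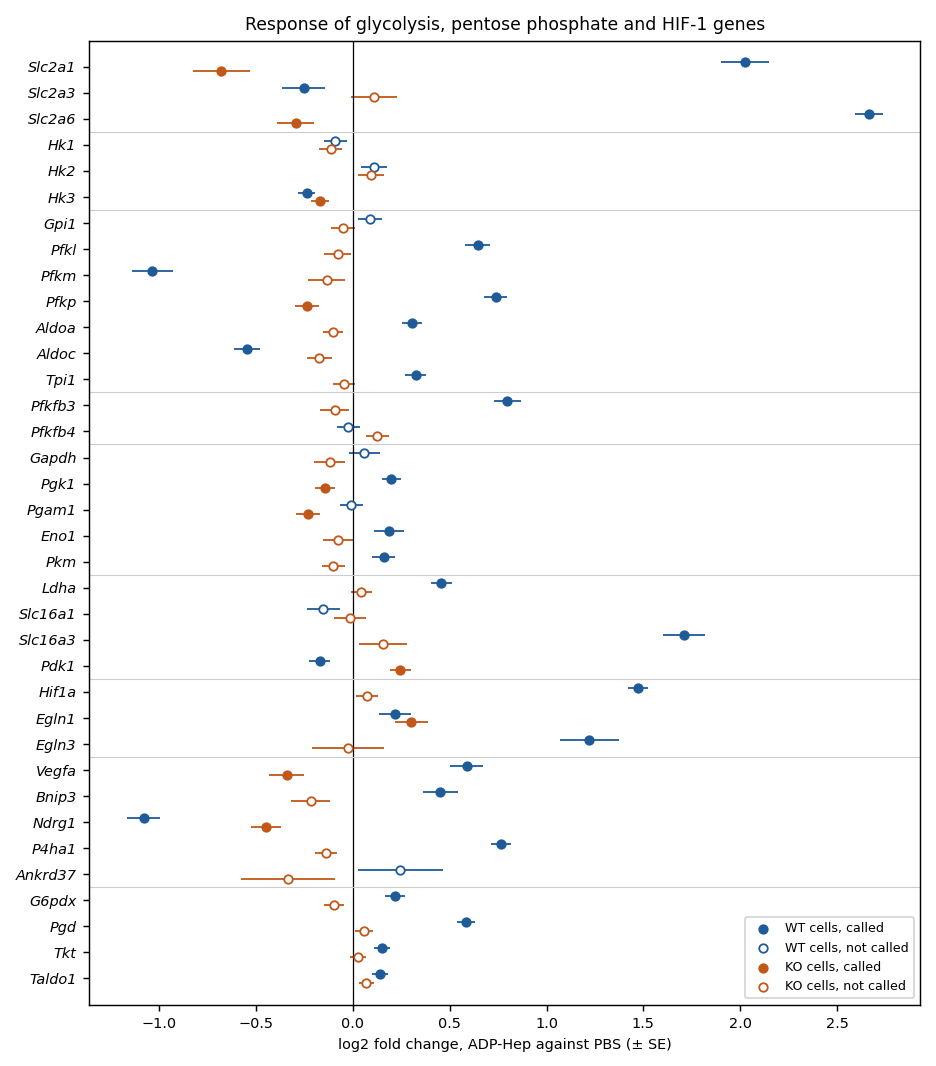
The plot shows the log2 fold change of each tested gene under ADP-Hep against PBS in WT (blue) and KO (orange) cells, with bars for ± SE, filled points for called genes, and genes grouped by role from transporters at the top to the pentose phosphate pathway at the bottom. The WT points of Slc2a6 (2.67), Slc2a1 (2.02), Slc16a3 (1.71), Hif1a (1.47) and Egln3 (1.22) lie far to the right of their KO points, and those of Ndrg1 (-1.08) and Pfkm (-1.04) lie to the left.

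The upstream sequence of the 3 genes that rose most in WT cells, of Pfkm and of Hif1a is given because these genes were among those that changed most or, for Hif1a, encode the factor itself, and because HIF-1 binds DNA at the core letters ACGTG or GCGTG. The windows reach up to 250 bases before the RefSeq start on build GRCm38.p6 and leave out any exon sequence. Each is written 5′ to 3′ along the gene, with capitals marking ACGTG or GCGTG on either strand, so that CACGT and CACGC are matches on the other strand. They lie at chr2:27027999-27028248 (minus strand) for Slc2a6, chr4:119108495-119108710 (plus) for Slc2a1, chr11:120948817-120949052 (plus) for Slc16a3, chr15:98092339-98092588 (plus, 1 of 4 RefSeq windows) for Pfkm and chr12:73907617-73907866 (plus) for Hif1a. In the GENCODE M21 annotation Hif1a starts earlier, at chr12:73901375, and Slc16a3 at chr11:120948480, so the windows of Hif1a and Slc16a3 lie inside the annotated genes. No window was at hand for Ndrg1, which fell slightly more than Pfkm.
Slc2a6: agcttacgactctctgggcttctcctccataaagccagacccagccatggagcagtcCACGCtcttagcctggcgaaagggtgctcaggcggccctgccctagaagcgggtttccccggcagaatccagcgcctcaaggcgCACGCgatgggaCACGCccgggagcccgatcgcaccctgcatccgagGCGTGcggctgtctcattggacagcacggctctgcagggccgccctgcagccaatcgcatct
Slc2a1: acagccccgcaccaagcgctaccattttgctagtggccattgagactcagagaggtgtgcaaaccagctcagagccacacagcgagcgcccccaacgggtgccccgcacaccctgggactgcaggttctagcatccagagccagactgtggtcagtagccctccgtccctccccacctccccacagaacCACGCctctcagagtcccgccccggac
Slc16a3: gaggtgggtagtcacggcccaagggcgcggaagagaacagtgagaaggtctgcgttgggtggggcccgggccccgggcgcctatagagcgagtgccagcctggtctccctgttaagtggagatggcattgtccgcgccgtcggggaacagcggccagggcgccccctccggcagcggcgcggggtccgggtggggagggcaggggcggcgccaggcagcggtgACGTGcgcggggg
Pfkm: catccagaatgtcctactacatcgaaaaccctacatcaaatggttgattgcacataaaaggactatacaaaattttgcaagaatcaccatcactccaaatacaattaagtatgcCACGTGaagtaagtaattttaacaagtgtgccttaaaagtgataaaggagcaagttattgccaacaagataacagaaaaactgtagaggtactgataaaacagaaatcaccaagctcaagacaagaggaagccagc
Hif1a: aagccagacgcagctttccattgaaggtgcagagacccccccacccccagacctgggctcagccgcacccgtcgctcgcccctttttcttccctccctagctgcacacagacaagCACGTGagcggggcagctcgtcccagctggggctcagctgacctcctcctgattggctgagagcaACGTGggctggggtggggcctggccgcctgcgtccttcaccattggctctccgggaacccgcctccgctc
The window of Slc2a6 held 4 matches to GCGTG and that of Slc2a1 held 1. The Slc16a3 window held 1 match to ACGTG, the Hif1a window 3 and the Pfkm window 2; in Hif1a and Pfkm a pair of these are the overlapping strands of 1 palindrome. At least 1 of the 2 motifs occurred in 41 of the 50 windows of 250 bases that RefSeq gives for 35 of these genes, and in 38.6% of all 32851 windows. The median GC content was 60.4% in the windows of these genes and 52.4% over all windows, and both motifs contain CG. The NF-kB consensus was found in 1 of the 50 windows and in 3.90% of all. A match is a run of letters and does not show binding.

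The glucose transporter genes of the list encode GLUT1 (Slc2a1), GLUT3 (Slc2a3) and GLUT6 (Slc2a6). RNA levels do not measure glucose uptake. In WT cells Slc2a6 stood at 17.4, 18.4 and 15.9 CPM under PBS and at 100.2, 111 and 116 CPM under ADP-Hep. In KO cells it stood at 14.3, 14.4 and 15.7 CPM under PBS and at 12.6, 10.7 and 12.3 CPM under ADP-Hep. Every WT ADP-Hep library was far above all the others, and in KO cells the ADP-Hep libraries lay below all PBS libraries. The change was 2.67 ± 0.07 in WT cells (adjusted p = 6.4e-21) and -0.30 ± 0.09 in KO cells (adjusted p = 0.019), and the responses differed by 2.96 ± 0.12 (adjusted p = 1.6e-16). Slc2a1 stood at 29.6, 32.0 and 29.4 CPM under PBS and at 108, 125 and 138 CPM under ADP-Hep in WT cells. Its KO levels were 38.8, 26.5 and 37.2 CPM under PBS and 20.4, 20.03 and 22.8 CPM under ADP-Hep. The groups of each genotype did not overlap, with ADP-Hep libraries above PBS in WT cells and below PBS in KO cells. Slc2a1 rose by 2.02 ± 0.12 in WT cells (adjusted p = 2.6e-08) and changed by -0.68 ± 0.15 in KO cells (adjusted p = 0.0045). Slc2a3 was low throughout, at 5.97 to 8.14 CPM over all libraries, and was called lower in WT cells by a small margin (-0.25 ± 0.11, adjusted p = 0.048). That call was lost when any library of the WT groups other than WT PBS replicate 3 was left out. Its difference between genotypes (-0.36 ± 0.16, adjusted p = 0.064) was called without WT PBS replicate 3 (-0.43) or KO ADP-Hep replicate 1 (-0.44).

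Per kilobase of longest transcript, the 3 glucose transporters together stood at 16.9 ± 0.92 CPM per kb (SD, n = 3) in WT PBS and 79.1 ± 7.49 in WT ADP-Hep, against 17.0 ± 2.15 in KO PBS and 11.98 ± 0.72 in KO ADP-Hep. The Slc2a6 share of that sum was 37.6% ± 0.9 in WT PBS and 50.9% ± 1.1 in WT ADP-Hep, without overlap between libraries. Slc2a1 made up 55.1% ± 1.1 before and 47.8% ± 1.3 after, and Slc2a3 7.31% ± 0.38 and 1.30% ± 0.14. After ADP-Hep in WT cells Slc2a6 stood at 40.2 ± 2.95 and Slc2a1 at 37.9 ± 4.56 CPM per kb, with the Slc2a6 share the larger in all 3 libraries. Per kilobase of summed exons the order was the reverse, at 48.5% for Slc2a6 and 50.2% for Slc2a1, so the order of the pair depends on the length used.

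**Figure D2:**
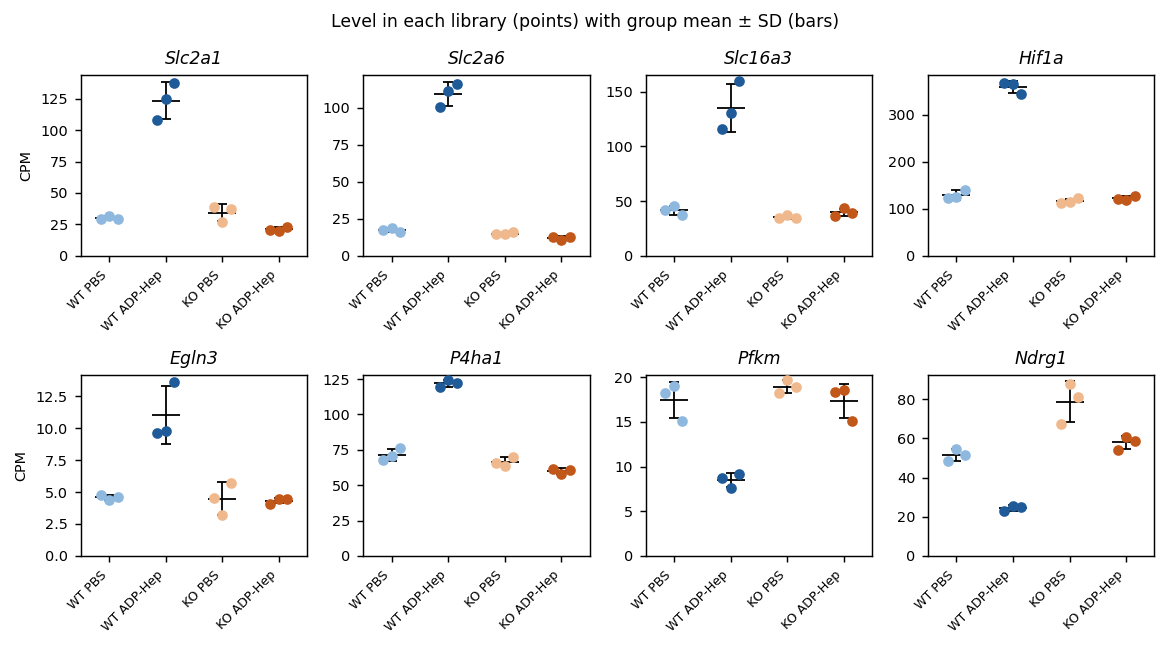
Points give the CPM of 8 genes in each library of the 4 groups, with the mean and SD of 3 libraries in black and every y axis starting at 0. The WT ADP-Hep libraries stand alone at the top for Slc2a1 (108 to 138 CPM), Slc2a6, Slc16a3, Hif1a, Egln3 and P4ha1, and at the bottom for Pfkm and Ndrg1.

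Hexokinases phosphorylate glucose and so commit it to the cell. Hk3, the most abundant of them per length, stood at 318, 314 and 299 CPM under PBS and 257, 266 and 267 CPM under ADP-Hep in WT cells. In KO cells it stood at 286, 293 and 289 CPM and at 254, 274 and 246 CPM. ADP-Hep libraries lay below PBS libraries in both genotypes, by -0.24 ± 0.05 in WT cells (adjusted p = 5.8e-05) and -0.17 ± 0.05 in KO cells (adjusted p = 0.0068), and the difference of -0.07 ± 0.06 did not pass the test (adjusted p = 0.38). Hk1, the widely expressed form, and Hk2, the form usually described as inducible, did not pass in either response; Hk2 changed by 0.11 ± 0.07 in WT cells, and was called there without WT PBS replicate 1 or WT ADP-Hep replicate 1 (0.17 each). Hk1, at 98.9 to 121 CPM, was called without WT ADP-Hep replicate 3 (-0.15) in WT cells and without KO ADP-Hep replicate 3 (-0.18) in KO cells. Hk2 did differ by genotype: it ran from 78.2 to 104 CPM in the 6 WT libraries and from 111 to 129.9 CPM in the 6 KO libraries. It was higher in KO cells by 0.41 ± 0.07 under PBS (adjusted p = 0.00024) and by 0.40 ± 0.07 under ADP-Hep (adjusted p = 2e-05). The Hk3 share of hexokinase CPM per kb was 69.2% ± 0.7 in WT PBS and 65.7% ± 1.5 in WT ADP-Hep.

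Upper glycolysis runs from glucose 6-phosphate to the triose phosphates, with phosphofructokinase as its main control point. Its 3 subunit genes moved in different directions in WT cells. Pfkm, the muscle form, stood at 18.2, 19.0 and 15.1 CPM under PBS and 8.72, 7.62 and 9.15 CPM under ADP-Hep in WT cells, and at 18.3, 19.7 and 18.9 CPM and 18.4, 18.5 and 15.1 CPM in KO cells. The 3 WT ADP-Hep libraries were the lowest of the 12. Pfkm fell in WT cells (-1.04 ± 0.11, adjusted p = 3.9e-09) and did not pass in KO cells (-0.14 ± 0.10). Pfkp, the platelet form, rose from 75.1, 75.0 and 68.1 CPM to 117, 119 and 128 CPM in WT cells and stood at 79.0, 69.7 and 77.3 CPM and 59.7, 65.2 and 66.9 CPM in KO cells. Neither genotype's groups overlapped, and the directions were opposite: 0.74 ± 0.06 in WT cells (adjusted p = 3.7e-11) and -0.24 ± 0.06 in KO cells (adjusted p = 0.0047). Pfkl, the liver form, rose by 0.64 ± 0.06 in WT cells and changed by -0.08 ± 0.07 in KO cells. Of phosphofructokinase CPM per kb, Pfkm made up 17.4% ± 1.0 in WT PBS and 6.07% ± 0.47 in WT ADP-Hep, Pfkl 58.4% ± 0.9 and 65.2% ± 1.5, and Pfkp 24.1% ± 0.5 and 28.7% ± 1.3. In KO cells the Pfkm share was 18.5% ± 0.6 and 18.4% ± 1.6. Exons of Pfkp share 748 bases with Pitrm1 on the opposite strand, which stood at 92.8 CPM in WT PBS and 84.5 CPM in WT ADP-Hep, and no source states whether the counting used strand.

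Aldoa, the main aldolase, was the most abundant gene of the upper pathway. It stood at 1065, 1092 and 1029 CPM under PBS and 1223, 1270.2 and 1439 CPM under ADP-Hep in WT cells, and at 1083, 1119 and 1129 CPM and 1001, 1076 and 1028 CPM in KO cells. WT ADP-Hep libraries were above all others, with a change of 0.30 ± 0.05 (adjusted p = 1.4e-05), and the KO change of -0.10 ± 0.05 did not pass. Its minor relative Aldoc ran from 29.0 to 31.3 CPM in WT PBS and from 20.4 to 20.6 CPM in WT ADP-Hep, a fall of 0.55 ± 0.07 on the log2 scale (adjusted p = 1.1e-07). The KO change of Aldoc was -0.17 ± 0.07 (adjusted p = 0.051), and -0.23 and called without KO PBS replicate 1. Tpi1, which interconverts the triose phosphates, rose by 0.32 ± 0.06 in WT cells, and Gpi1, the isomerase of glucose 6-phosphate, ran from 339.6 to 432 CPM and passed in no comparison; KO minus WT under ADP-Hep was -0.12 ± 0.06, and was called without WT ADP-Hep replicate 1 (-0.17) or KO ADP-Hep replicate 3 (-0.18).

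Fructose 2,6-bisphosphate, a strong activator of phosphofructokinase, is made and removed by the PFKFB enzymes. Pfkfb3 stood at 41.4, 39.2 and 35.7 CPM under PBS and 64.6, 68.5 and 68.5 CPM under ADP-Hep in WT cells, and at 39.3, 36.6 and 35.0 CPM and 33.6, 39.3 and 32.1 CPM in KO cells. The WT groups were far apart and the KO groups overlapped; the responses differed by 0.89 ± 0.10 (adjusted p = 5e-08). Pfkfb4 stood at 39.3, 37.3 and 38.1 CPM and 39.1, 38.1 and 35.1 CPM in WT cells, and at 43.8, 46.9 and 42.5 CPM and 48.0, 50.6 and 47.5 CPM in KO cells. It passed in neither response and was higher in KO cells under PBS (0.22 ± 0.06, adjusted p = 0.018). Per kilobase the more abundant gene of the pair changed from Pfkfb4 to Pfkfb3 in WT cells, with Pfkfb3 at 42.4% ± 1.6 in WT PBS and 56.6% ± 2.1 in WT ADP-Hep. In KO cells Pfkfb3 held 37.7% ± 1.6 and 34.2% ± 1.65.

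**Figure D3:**
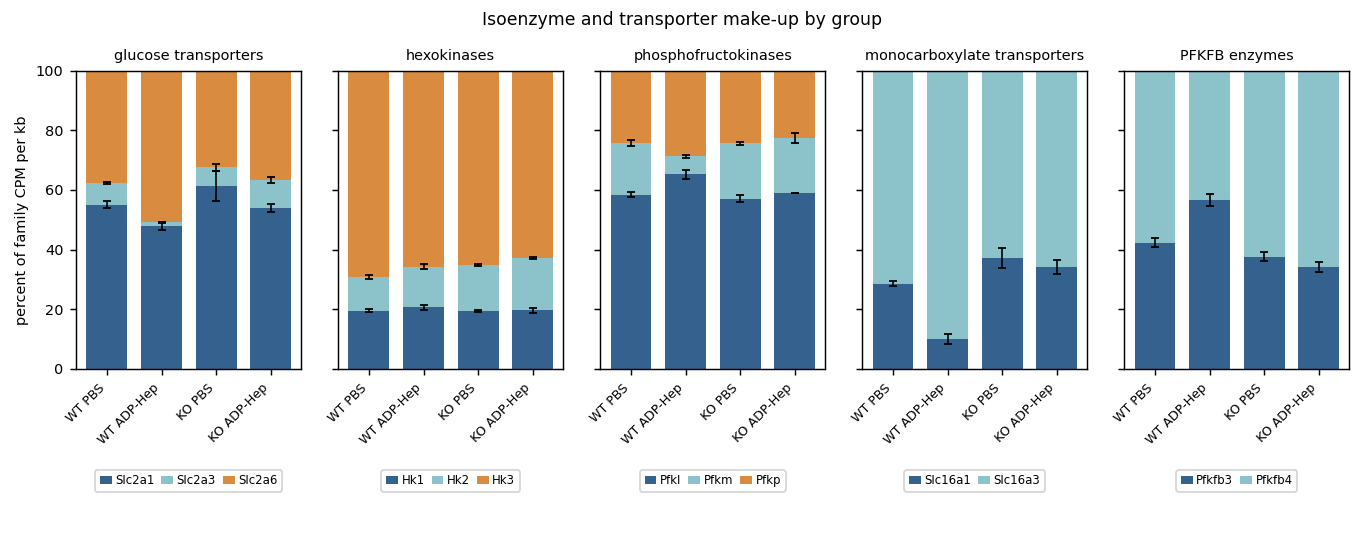
Stacked bars give the percent of each family's CPM per kb held by each gene in the 4 groups (mean of 3 libraries); error bars show the SD of the share of the segment whose top they sit on. WT ADP-Hep differs from the other groups in a larger Slc2a6 segment (50.9%), a small Pfkm segment (6.07%), a large Slc16a3 segment (90.1%) and a larger Pfkfb3 segment (56.6%).

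Lower glycolysis takes the triose phosphates to pyruvate, and its genes moved little. Pkm, which encodes pyruvate kinase, was the most abundant per length, at 1515, 1473 and 1336 CPM under PBS and 1506, 1544 and 1780.3 CPM under ADP-Hep in WT cells, and at 1532, 1484 and 1574 CPM and 1363, 1502 and 1413 CPM in KO cells. The groups overlapped in WT cells, and the change of 0.16 ± 0.06 (adjusted p = 0.022) was no longer called without WT ADP-Hep replicate 3 (0.08) or WT PBS replicate 3 (0.11). Gene counts do not separate the splice forms of Pkm. Pgk1, which makes the first ATP of the pathway, stood at 199, 204 and 193 CPM and 219, 217 and 248 CPM in WT cells, and at 192, 186 and 199 CPM and 175, 172 and 173 CPM in KO cells. It rose in WT cells (0.20 ± 0.05, adjusted p = 0.0011) and fell in KO cells (-0.14 ± 0.05, adjusted p = 0.031), with no overlap in either. Pgam1 was the gene called in KO cells and not in WT cells, at -0.23 ± 0.06 (adjusted p = 0.0062) against -0.01 ± 0.06. Enolase, Eno1, rose by 0.19 ± 0.08 in WT cells (adjusted p = 0.045), a call lost without WT ADP-Hep replicate 3 (0.10) or WT PBS replicate 3 (0.12). Its difference between genotypes did not pass (0.26 ± 0.11, adjusted p = 0.060), but did without WT PBS replicate 2, WT ADP-Hep replicate 1 or 2, or KO ADP-Hep replicate 3 (0.30 to 0.33). Gapdh, often used as a reference gene, did not pass in either response and ran from 579 to 805 CPM. Similar genes among the rows analysed, 38 of them at 95% identity or more over 300 bases, took counts equal to 0.995% of those of Gapdh. Copies in the rows not used were not counted.

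Lactate dehydrogenase A, monocarboxylate transporters and pyruvate dehydrogenase kinase set the fate of pyruvate. Ldha stood at 542, 542 and 506 CPM under PBS and 692, 687 and 806 CPM under ADP-Hep in WT cells, and at 479.9, 479 and 490.5 CPM and 481, 527 and 485 CPM in KO cells. All WT ADP-Hep libraries exceeded all others (0.46 ± 0.05, adjusted p = 7.4e-08), and the KO groups overlapped. Slc16a3, which encodes the lactate exporter MCT4, stood at 41.8, 45.1 and 37.1 CPM and 116, 131 and 159.5 CPM in WT cells, and at 34.0, 36.9 and 34.6 CPM and 36.5, 43.4 and 38.9 CPM in KO cells. The lowest WT ADP-Hep library was more than 2-fold above every other library, and the change was 1.71 ± 0.11 in WT cells (adjusted p = 1.1e-08) and 0.16 ± 0.12 in KO cells (adjusted p = 0.38). Slc16a1, which encodes MCT1, passed in neither response, so the Slc16a3 share of the pair's CPM per kb was 71.4% ± 0.8 in WT PBS and 90.1% ± 1.6 in WT ADP-Hep. In KO cells that share was 62.9% ± 3.4 and 65.9% ± 2.3. Pdk1, whose product restrains the entry of pyruvate into the mitochondrial cycle, stood at 66.2, 66.5 and 69.0 CPM and 59.8, 60.2 and 59.2 CPM in WT cells, and at 55.7, 56.9 and 63.8 CPM and 71.2, 68.2 and 69.2 CPM in KO cells. It fell in WT cells (-0.17 ± 0.05, adjusted p = 0.0069) and rose in KO cells (0.25 ± 0.05, adjusted p = 0.0012), without overlap, the reverse of the order seen for Slc2a1 and Pfkp.

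Hif1a stood at 123, 124 and 141 CPM under PBS and 368, 366 and 344 CPM under ADP-Hep in WT cells, and at 113, 114 and 122 CPM and 121, 118 and 128 CPM in KO cells. The WT ADP-Hep libraries stood apart, and the KO groups overlapped. The change was 1.47 ± 0.05 in WT cells (adjusted p = 4.3e-18) and 0.07 ± 0.06 in KO cells (adjusted p = 0.35), a difference of 1.40 ± 0.08 (adjusted p = 7.2e-14). HIF-1 alpha is controlled largely by protein stability, which RNA does not measure. Egln3, which encodes the prolyl hydroxylase PHD3 and is itself a HIF target, stood at 4.75, 4.34 and 4.63 CPM and 9.62, 9.76 and 13.6 CPM in WT cells, and at 4.55, 3.18 and 5.72 CPM and 4.07, 4.48 and 4.43 CPM in KO cells. It rose by 1.22 ± 0.15 in WT cells (adjusted p = 2.4e-07), with WT ADP-Hep replicate 3 the highest library. Egln1, which encodes PHD2, the main oxygen-sensing hydroxylase, was called higher in both genotypes, at 0.22 ± 0.08 in WT cells (adjusted p = 0.026) and 0.30 ± 0.09 in KO cells (adjusted p = 0.012), and the difference did not pass. The WT call of Egln1 was lost without WT PBS replicate 1 or 2 or WT ADP-Hep replicate 1 or 2, and the KO call without KO PBS replicate 1 or KO ADP-Hep replicate 1.

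Of the 6 other HIF-1 targets, 3 rose in WT cells, 1 fell, 1 did not pass and 1 was not tested. Over all genes, 31.9% were called higher and 31.6% lower there. P4ha1, a subunit of collagen prolyl 4-hydroxylase, stood at 68.0, 70.6 and 76.2 CPM and 119, 124 and 122 CPM in WT cells, and at 65.5, 63.9 and 70.03 CPM and 61.6, 58.0 and 60.9 CPM in KO cells. It rose by 0.76 ± 0.05 in WT cells (adjusted p = 1.6e-12), and in KO cells the change of -0.14 ± 0.06 did not pass. Vegfa, the angiogenic growth factor gene, stood at 21.4, 21.3 and 18.0 CPM and 30.3, 29.2 and 31.0 CPM in WT cells, and at 25.4, 20.5 and 22.6 CPM and 16.5, 20.4 and 17.6 CPM in KO cells. The WT groups were apart and the KO groups nearly touched, with changes of 0.59 ± 0.08 (adjusted p = 1.4e-06) and -0.34 ± 0.09 (adjusted p = 0.0061). Bnip3, which encodes a mitophagy receptor, rose by 0.45 ± 0.09 in WT cells. Ndrg1, a stress-responsive gene, stood at 48.4, 54.8 and 51.7 CPM and 22.9, 25.5 and 24.96 CPM in WT cells, and at 67.2, 87.6 and 81.1 CPM and 54.2, 60.9 and 58.8 CPM in KO cells. It fell in both genotypes, by 1.08 ± 0.09 on the log2 scale in WT cells (adjusted p = 5.6e-10) and 0.45 ± 0.08 in KO cells (adjusted p = 0.00015), and the fall was larger in WT cells (difference -0.63 ± 0.12, adjusted p = 0.00012). Ankrd37 ran from 1.24 to 2.12 CPM and passed in no comparison. Adm, which encodes adrenomedullin, had 0, 1 and 2 counts in WT PBS, 8, 4 and 7 in WT ADP-Hep, 1, 2 and 5 in KO PBS and 2, 1 and 3 in KO ADP-Hep, which is too few to test.

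All 4 pentose phosphate genes were called higher in WT cells, where 31.9% of all genes were. None was called in KO cells, where 13.7% of all genes were called higher and 15.3% lower. With library totals as the only scaling, Pgd alone kept its WT call (Tkt 0.04, Taldo1 0.03 and G6pdx 0.11 did not pass), and Taldo1 was called higher in KO cells (0.11, adjusted p = 0.027). Pgd, the second NADPH-producing dehydrogenase of the pathway, had the largest change, at 521, 515 and 517 CPM under PBS and 738, 754 and 841 CPM under ADP-Hep in WT cells, and at 572, 555 and 594 CPM and 581, 603 and 606 CPM in KO cells. It rose by 0.59 ± 0.05 in WT cells (adjusted p = 5.5e-11), the WT ADP-Hep libraries lying above all others, and changed by 0.06 ± 0.05 in KO cells. Taldo1, transaldolase and the most abundant of the 4 per length, stood at 353, 361 and 363 CPM and 388, 392 and 407 CPM in WT cells, and at 350.5, 356 and 358 CPM and 381, 369.8 and 366 CPM in KO cells. Its increase was small (0.14 ± 0.04, adjusted p = 0.0044), and the KO groups were also apart although the KO change of 0.07 ± 0.04 did not pass. G6pdx, the entry enzyme of the pathway, rose by 0.22 ± 0.05 and Tkt, transketolase, by 0.15 ± 0.04 in WT cells. The response differed by genotype for Pgd and G6pdx and did not pass the test for Tkt (0.13 ± 0.06, adjusted p = 0.081) or Taldo1 (0.07 ± 0.06, adjusted p = 0.34). The Tkt difference was called without KO PBS replicate 1 (0.15) and in the DESeq2 Wald test (0.14). Exons of G6pdx share 418 bases with Ikbkg on the opposite strand, which stood at 92.5 CPM in WT PBS and 137 CPM in WT ADP-Hep.

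**Figure D4:**
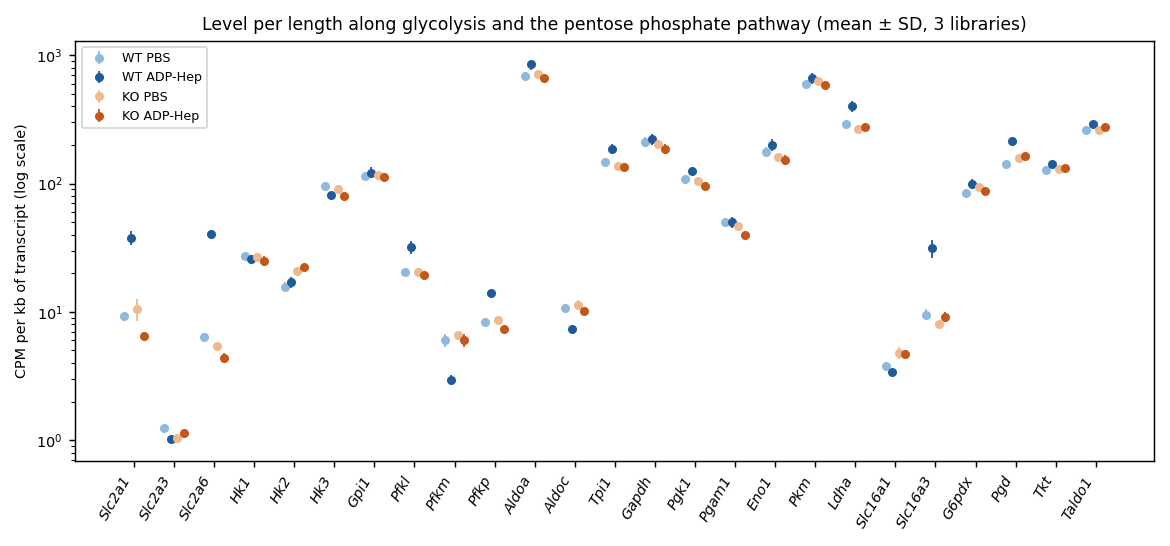
Mean CPM per kb of longest transcript ± SD (3 libraries) is plotted on a log axis for the transporters, glycolytic enzymes, lactate genes and pentose phosphate genes in pathway order, with 1 colour per group. Aldoa (686 in WT PBS), Pkm (593) and Ldha (292) lie near the top, and the wide gaps between WT ADP-Hep and the other groups are at Slc2a1, Slc2a6, Pfkm and Slc16a3.

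Summed over all 37 genes, the share of counts in the rows used was 0.788% ± 0.031 in WT PBS and 0.896% ± 0.056 in WT ADP-Hep, and 0.798% ± 0.003 and 0.788% ± 0.025 in KO cells. The WT ranges of 0.753 to 0.810% and 0.864 to 0.961% did not overlap, and the KO ranges did. For the glycolytic enzymes with Ldha alone, the WT ranges of this share, which is not TMM-scaled, overlapped (0.540 to 0.596% and 0.582 to 0.664%). In TMM-scaled CPM the WT ranges of the same sum were apart, at 5335 to 5891 under PBS and 6110 to 7179 under ADP-Hep. For the 4 pentose phosphate genes the KO ranges of the share were also apart, at 0.161 to 0.163% under PBS and 0.169 to 0.171% under ADP-Hep. In TMM-scaled CPM these KO ranges overlapped, at 1570 to 1635 under PBS and 1611 to 1639 under ADP-Hep. Per kilobase of longest transcript, Aldoa, Pkm, Ldha and Taldo1 were the highest genes in WT PBS at 686 ± 20.2, 593 ± 38.5, 292 ± 11.4 and 264 ± 3.9 CPM per kb (SD, n = 3). These abundant genes changed by 0.14 to 0.46 on the log2 scale in WT cells, whereas the transporter genes that changed most started at 6.36 to 9.54 CPM per kb. Within groups, WT ADP-Hep replicate 3 was the highest of its group for 26 of the 36 tested genes, KO ADP-Hep replicate 3 for 24, and WT PBS replicate 3 was the lowest for 23. Their total counts were 16110654, 16193668 and 30670599. The part of depth in these orders was not tested.

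The WT and KO responses differed for 23 of the 36 genes, 19 of them with a higher and 4 with a lower response in WT cells, against a background of 24.6% and 24.9% of all genes. The median difference was 0.29. Both responses were called, in opposite directions, for Slc2a1, Slc2a6, Pfkp, Pgk1, Vegfa and Pdk1, and the difference itself passed for all 6. The share of all genes called in opposite directions is not given here, so this count has no background. Of the 10 KO calls, those of Slc2a1, Ndrg1, Pgam1 and Pdk1 held whichever library was left out. The others were lost in at least 1 such fit: Slc2a6 without KO PBS replicate 3 (-0.26) or KO ADP-Hep replicate 3 (-0.24), Pfkp without KO ADP-Hep replicate 1 (-0.19), Vegfa without KO PBS replicate 1 (-0.26) or KO ADP-Hep replicate 1 (-0.27), and Hk3 without the unnumbered KO ADP-Hep library (-0.13). The KO call of Pgk1 was lost in 9 alternative fits, among them those without KO PBS replicate 1 or 3 or KO ADP-Hep replicate 1 or 3. The difference for Pgam1 (0.22 ± 0.09, adjusted p = 0.035) was lost in 8, among them the fits without WT PBS replicate 1 or 3, WT ADP-Hep replicate 3 (0.14), KO PBS replicate 3, KO ADP-Hep replicate 1 or the unnumbered library.

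Without the agonist, 5 of the 36 tested genes were higher and 1 lower in KO PBS than in WT PBS, against a background of 5.57% and 5.82%. With each library left out in turn, 3 to 5 genes were called higher and 0 to 2 lower. No called gene differed by 2-fold or more, and the share of all genes that did is not given here. Ndrg1 was higher by 0.61 ± 0.08 (adjusted p = 1.6e-05), with all KO PBS libraries (67.2 to 87.6 CPM) above all WT PBS libraries (48.4 to 54.8 CPM). Hk2 and Pfkfb4 were given above, Slc16a1 was higher by 0.33 ± 0.08 (adjusted p = 0.010), and Pgd by 0.15 ± 0.05 (adjusted p = 0.045). Pdk1 was lower (-0.20 ± 0.05, adjusted p = 0.018). The call was lost for Slc16a1 without WT PBS replicate 3 or KO PBS replicate 1 or 3, for Pfkfb4 without replicate 2 of either group, for Pgd without any WT PBS library or KO PBS replicate 1 or 3, and for Pdk1 without WT PBS replicate 3 or KO PBS replicate 1 or 2. Slc2a1 (0.16 ± 0.14) was called higher without KO PBS replicate 2 (0.33), and Hif1a (-0.15 ± 0.06) lower without WT PBS replicate 1 (-0.19). Under ADP-Hep 7 genes were higher and 22 lower in KO than in WT cells, against 32.8% and 32.0%, in a comparison that shares its libraries with the 2 responses. Those lower by 2-fold or more were Slc2a6 (-3.17 ± 0.07), Slc2a1, Slc16a3, Hif1a, Egln3 and P4ha1, and those higher were Ndrg1 (1.24 ± 0.08) and Pfkm (1.04 ± 0.10). Hk2, Aldoc, Pfkfb4, Slc16a1 and Pdk1 were the other 5 called higher. Of the lower calls, those of Tkt (-0.10), Pkm (-0.18) and Gapdh (-0.25) were lost without WT ADP-Hep replicate 3 or KO ADP-Hep replicate 1, and that of Tkt also without WT ADP-Hep replicate 2, KO ADP-Hep replicate 3 or the unnumbered library.

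Other genes of the same pathways, taken from lists chosen with earlier results of these data known, were read beside these, against 31.9% of all genes higher and 31.6% lower in WT cells. Among 26 tested genes of glycolysis and pyruvate use outside the 37, 7 rose and 11 fell in WT cells (median -0.08), the 4 with the smallest p being Gpd2, the mitochondrial glycerol phosphate dehydrogenase (2.20 ± 0.06), Pdp1, a pyruvate dehydrogenase phosphatase (-1.97 ± 0.09), the transporter gene Slc16a7 (-1.21 ± 0.07) and the glucose transporter gene Slc2a8 (-1.31 ± 0.08). Gpd2 stood at 37.0 ± 1.6 CPM (SD, n = 3) in WT PBS and 170.3 ± 11.7 in WT ADP-Hep, and at 29.7 ± 2.1 and 35.9 ± 0.94 in KO cells, where it also rose (0.27 ± 0.07). Pdp1 fell in KO cells too (-1.26 ± 0.08). The enolase gene Eno2 fell in KO cells (-2.25 ± 0.27), from 2.67 ± 0.57 to 0.572 ± 0.124 CPM, and rose in WT cells (0.63 ± 0.19). Of 9 other pentose phosphate genes, 2 rose and 3 fell in WT cells; Shpk, sedoheptulose kinase, fell by 1.09 ± 0.15 on the log2 scale and Tigar, a fructose bisphosphatase, rose by 0.62 ± 0.09. Of 13 other HIF pathway regulators, 5 rose and 3 fell; Cited2, whose product competes with HIF-1 alpha for its coactivator, rose in WT cells (0.54 ± 0.05) and fell in KO cells (-0.27 ± 0.06), and Epas1, which encodes HIF-2 alpha, fell in WT cells (-0.86 ± 0.14). Of 29 other HIF-1 targets, 13 rose and 11 fell (median 0.22), with Nos2, the inducible nitric oxide synthase gene (6.08 ± 0.27), the small GTPase gene Rab20 (1.88 ± 0.08), the zinc finger gene Zfp395 (-2.61 ± 0.08) and Ccng2, a cyclin gene (-1.18 ± 0.06), leading by p.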

How the data were processed

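RNA of 12 macrophage libraries in 4 groups of 3 was analysed. The authors deposited whole-number counts per gene, not normalized. Per the labels' protocols, libraries were made with a stranded mRNA kit. The submitters' processing notes list the builds mm10 and hg38 and, without roles or versions, DESeq2, RSEM, featureCounts, STAR, Trim Galore and FastQC; the counting tool, annotation and use of strand are not stated.

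From row 37642 of the table, values in the KO columns are displaced downward by 1 row: WT and KO means correlated at 0.996 over the rows used, 0.042 below, and 0.979 there once moved up. The 37542 rows above, less a margin of 100, were used and 19206 were not. Among the KO ADP-Hep columns 1 matched no label and kept its group without a number. All 37542 identifiers were found in GENCODE M21 (37363 with the same symbol), the source of transcript lengths.

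In R 4.3.3 with edgeR 4.0.16, libraries were scaled by TMM, filterByExpr kept 12261 genes, and 1 quasi-likelihood model with 4 group means gave 5 comparisons, adjusted by Benjamini-Hochberg over all genes; SE is the log2 change over the root of F. Fits were tested on simulated data. The replicate spread (biological coefficient of variation) was 4.81%. Shared replicate numbers were not used as pairs. Alternatives were other scalings, filters and tests (DESeq2 1.42.0, limma-voom of limma 3.58.1), a replicate block, all rows, and each library left out.

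The members and lists were chosen with earlier results of these data known. Levels per library are given for genes changed by at least 0.8 (log2) and called in a response or their difference, called in opposite directions, too low to test, or most abundant in their role; other members by changes and ranges. Of related lists up to 4 called genes with the smallest p were open to naming.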

Additional observations from a re-analysis of the deposited data

Results flagged for a closer look

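The responses of WT and KO cells to ADP-Hep differed by the interaction test for 23 of the 36 genes tested, with the WT response minus the KO response given here on the log2 scale. The transporter genes had the widest gaps, at 2.96 for Slc2a6, 2.70 for Slc2a1 and 1.55 for Slc16a3. The HIF-1 genes followed, at 1.40 for Hif1a, 1.25 for Egln3, 0.93 for Vegfa, 0.90 for P4ha1 and 0.67 for Bnip3. Among glycolytic enzymes the difference was 0.97 for Pfkp, 0.89 for Pfkfb3, 0.72 for Pfkl, 0.41 for Ldha, 0.40 for Aldoa, 0.37 for Tpi1, 0.34 for Pgk1, 0.26 for Pkm and 0.22 for Pgam1. In the pentose phosphate pathway it was 0.53 for Pgd and 0.32 for G6pdx. The WT response was the lower for Pfkm (-0.90), Ndrg1 (-0.63), Pdk1 (-0.42) and Aldoc (-0.37).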

How the results depend on the processing

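Over the alternatives, 3240 values of single genes were recomputed: 3049 kept direction and side of the threshold, 55 changed sign but were called in neither fit, 93 lost their call, 41 gained one and 2 changed sign when called. With library totals as the only scaling, KO minus WT under ADP-Hep turned to 0.055 for Tkt and 0.13 for Hk3, 4 genes were higher in the KO response and 8 lower in the difference of responses; the cause was not tested. Deviations from the group mean correlated at -0.37 to 0.22 between same-numbered libraries of different groups and at -0.24 to 0.31 between the others. With 3 libraries per group, these values cannot show whether shared numbers mark paired samples. With the replicate block, the KO response had 1 gene higher and 5 lower. For KO against WT under PBS, 5 genes were lower with no filter, and with all rows as deposited 2 were lower and 3150 of all genes were called, against 1397; that fit includes the rows where the KO columns are displaced. With each library left out in turn, the KO response had 1 to 2 genes higher and 5 to 8 lower (5 without KO ADP-Hep replicate 1, where 1 was higher, as without KO PBS replicate 1), and KO against WT under PBS had 3 to 5 higher, 0 to 2 lower and 829 to 1303 of all genes called, the fewest without KO PBS replicate 1. Per kilobase of summed exons in place of the longest transcript, the shares in WT PBS and WT ADP-Hep were 35.6% and 48.5% for Slc2a6, 75.0% and 71.4% for Hk3, 24.7% and 30.9% for Pfkp, and 67.1% and 88.1% for Slc16a3. Adm, at 0 to 8 counts per library, is limited by depth.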

Other observations

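A second row with the symbol Aldoa (ENSMUSG00000114515) lay among the rows not used and entered no comparison. It had 4, 4 and 5 counts in WT PBS and 3, 4 and 3 in WT ADP-Hep, where the Aldoa row described above had between 15333 and 30010 counts per WT library.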
